A study of Canis lupus familiaris with 29 samples.

Results

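The ERBB receptors and their ligands were examined in 10 normal adrenal medullas (NAMs) and 19 pheochromocytomas and paragangliomas (PPGLs) of dogs. The genes were chosen by name from the exon count table, and all 10 were present among its 30951 genes. They were 4 receptors (EGFR, ERBB2, ERBB3 and ERBB4) and 6 ligands (NRG1, NRG2, EGF, AREG, EREG and HBEGF).

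PPGLs are tumors of chromaffin cells, the catecholamine-secreting cells of the adrenal medulla and the sympathetic paraganglia. RNA sequencing was used to compare these tumors with NAMs, and 7 PPGLs of group 1 with 12 PPGLs of group 2. The NAMs came from healthy research dogs and were snap-frozen, and the tumors came from client-owned dogs of several clinics and were snap-frozen or kept in RNAlater. Tissue handling and tumor state cannot be told apart. The authors drew the groups from a principal component analysis of these same samples, so p-values between them describe that split. Tumors that stood apart in such an analysis had been left out by the authors. Ages and breeds of the dogs were not used here.

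The total count per sample ranged from 19258054 to 35918182 in NAMs, from 18493540 to 31919833 in group 1 and from 18208718 to 24569667 in group 2. Levels are given as CPM, counts scaled to the library size after TMM normalization. A count of 3, taken as the floor of detection, was worth between 0.0835 and 0.165 CPM of the total count, before the TMM factor. This floor covers counting error only.

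ERBB receptors are tyrosine kinases that pair at the cell surface when a ligand binds, and that signal through the ERK cascade and through PI3 kinase. ERBB2 has no known ligand and acts as a partner, and ERBB3 has a weak kinase and depends on a partner. Neuregulins act on ERBB3 and ERBB4 and carry signals between neurons and Schwann cells, the glia of peripheral nerve, which are relatives of the sustentacular cells around chromaffin cells.

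The tissue was checked against its markers. Of 13 chromaffin markers 12 were found by name. Their summed level was 17887 to 97148 CPM in NAMs with a median of 32384 CPM, 8370 to 119048 CPM in group 1 with a median of 34561 CPM, and 20991 to 103413 CPM in group 2 with a median of 49652 CPM. CHGB was the most abundant marker by its mean in each group. The lowest sum was that of group 1 replicate 7.

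NAMs also held RNA of the adrenal cortex, the steroid-making tissue around the medulla. The summed level of the 11 cortex markers was 14133 to 69306 CPM in NAMs, 97.8 to 1172 CPM in group 1 and 256 to 34457 CPM in group 2. CYP17A1 was the most abundant of them in NAMs and group 2, and STAR in group 1. MC2R, the receptor for the hormone that drives the cortex, was at 0 counts in group 1 replicates 2, 3, 5 and 7. Against NAMs all 11 markers were lower in group 1, beside 14.1% of all genes, and 10 of 11 in group 2, beside 14.5%, with a median log2 FC of -8.33 and -2.60 beside 0.13 and 0.09 over all genes. Between the PPGL groups 10 of 11 were lower in group 1, beside 2.95% of all genes. Cortex markers therefore differed in each comparison below.

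The summed level of the 10 Schwann and sustentacular markers was 239 to 681 CPM in NAMs, 97.1 to 702 CPM in group 1 and 12.8 to 230 CPM in group 2. SCN7A was the most abundant of them in NAMs and group 2, and NGFR in group 1. NGFR made up 646 of 702 CPM in group 1 replicate 2 and 275 of 287 CPM in group 1 replicate 7. The Schwann score was the mean log2 CPM of the 9 of these markers that passed the low-count filter. It was 3.55 to 5.12 in NAMs, 0.23 to 4.69 in group 1 and -0.67 to 4.16 in group 2. Only group 1 replicate 4 and group 2 replicates 2, 5 and 9 reached the scores of the NAMs. S100B was at 0 counts in group 1 replicates 1 and 3 and in group 2 replicates 1, 3, 8, 11 and 12, and in no NAM.

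Between PPGLs and NAMs, 7 of the 10 members passed the low-count filter, and 2 of them, the receptors ERBB4 and ERBB2, were lower by edgeR's quasi-likelihood test, called where the FDR-adjusted p was below 0.05. Over all 14766 genes tested 37.5% were called and 15.2% were called lower. The members' share called in either direction was thus not above the background. Their share called lower, 2 of 7, was not tested against the 15.2%. In group 1 against NAMs 4 of 8 members tested were called, where 35.1% of 15201 genes were called. Of these, 3 were lower (ERBB4, ERBB2 and EGFR), beside 14.1% of all genes, and 1 was higher (EGF), beside 21%. Without group 1 replicate 2, 2 were called. In group 2 against NAMs 1 of 8 was called, ERBB4, lower, where 32.9% of genes were called and 14.5% were called lower. Without group 1 replicate 4, group 2 replicate 9 or group 2 replicate 11, 2 were called. The median log2 FC of the members tested was -0.09, -0.37 and -0.03 in these 3 comparisons, beside 0.13, 0.13 and 0.09 over all genes.

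ERBB4 (ENSCAFG00000023258, chromosome 37, 19037217 to 20134426, minus strand of the CanFam3.1 assembly), a receptor for neuregulins, was lower in PPGLs than in NAMs. Its level in NAMs was 4.02 to 24.8 CPM with a median of 12.3 CPM. It was 0 to 7.82 CPM with a median of 0.0671 CPM in group 1, and 0 to 2.4 CPM with a median of 0.483 CPM in group 2. All 12 PPGLs of group 2 and 6 of 7 of group 1 lay below every NAM. The exception was group 1 replicate 6, with 134 counts, inside the range of the NAMs. A count of 3 or fewer was found in 5 of 7 PPGLs of group 1 and 3 of 12 of group 2. In bulk tissue, fewer cells of a type and less RNA per cell cannot be told apart.

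**Figure D1:**
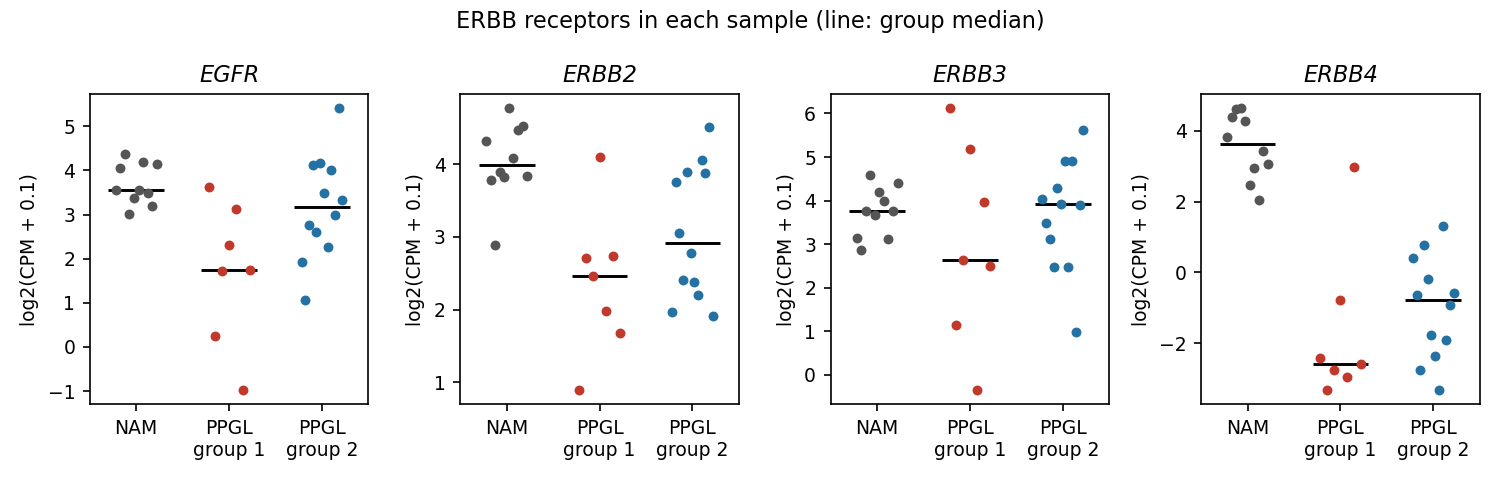
Level of the 4 receptors in each sample, as log2 of CPM plus 0.1 on the vertical axis, for 10 NAMs, 7 PPGLs of group 1 and 12 PPGLs of group 2. Each point is a sample and each line a group median. For ERBB4, 18 of 19 PPGLs sit below every NAM and group 1 replicate 6 sits among the NAMs.

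In PPGLs against NAMs ERBB4 had a log2 FC of -4.01 (SE 0.72, adjusted p = 9.5e-05). A log2 FC under -3 with an adjusted p below 0.05 was reached by 117 genes, 0.792% of those tested. ERBB4 fell in both PPGL groups, which share the NAMs. In group 1 the log2 FC was -3.54 (SE 1.04, adjusted p = 0.00876), and without group 1 replicate 6 it was -6.83 (adjusted p = 1.06e-05). In group 2 it was -4.37 (SE 0.86, adjusted p = 0.00039). Group 1 against group 2 gave a log2 FC of 0.86 (SE 1.04, adjusted p = 0.693), and the sign turned without group 1 replicate 6, at -2.44, and in the DESeq2 Wald test, at -2.14.

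The cortex score, the mean log2 CPM of the cortex markers, was 8.94 to 11.18 in NAMs, 0.04 to 3.79 in group 1 and 3.08 to 9.93 in group 2. No PPGL of group 1 reached the scores of the NAMs, so group and score cannot be told apart there, and in group 2 only replicate 10 did. With this score in the fit 2005 of 14766 genes were called in PPGLs against NAMs, in place of 5541, 10 of 15201 in group 1, in place of 5331 and with ERBB4, ERBB2, EGFR and EGF not among them, and 838 of 15201 in group 2, in place of 5005. Fewer genes were thus called in each comparison, which applies to each value below with the cortex score in the fit.

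The call of ERBB4 was lost in this fit. In PPGLs against NAMs its log2 FC was then -3.50 (adjusted p = 0.0836), and over the alternatives other than leaving out a sample, to which each range below refers, the adjusted p ranged from 1.89e-07 to 0.0836. In group 1, where group and score cannot be told apart, the sign turned, at 1.12 (adjusted p = 0.888), in a range of 0.000383 to 0.888. In group 2 it was -2.15 (adjusted p = 0.331), in a range of 2.57e-07 to 0.331. With the Schwann score in the fit the value was -3.06 (adjusted p = 0.0105) over all PPGLs and -3.11 (adjusted p = 0.0531) in group 2, where the call was lost.

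Among the 10 NAMs ERBB4 was lower where the cortex score was higher, with r = -0.79 (permutation p = 0.00731, adjusted p = 0.087) and rho = -0.76 (permutation p = 0.015, adjusted p = 0.145). Without the 2 NAMs farthest from the median score r was -0.74. In the 19 PPGLs ERBB4 and the cortex score gave r = 0.39 (permutation p = 0.0954, adjusted p = 0.392) and rho = 0.45 (permutation p = 0.0523, adjusted p = 0.359), the opposite sign, and r was 0.44 without the 2 farthest samples. Within group 1 it gave r = 0.82 (exact permutation p = 0.0202) and rho = 0.54 (exact permutation p = 0.236), and within group 2 r = 0.22 (permutation p = 0.503) and rho = 0.21 (permutation p = 0.515). Neither pooled relation passed the correction over the 144 relations in NAMs and in all PPGLs. The p-values within a PPGL group, here and below, were not adjusted. The score of kidney and liver markers took in 3 of 9 markers, those that passed the low-count filter. Among NAMs ERBB4 was lower where this score was higher, with r = -0.73 (permutation p = 0.0163, adjusted p = 0.167) and rho = -0.83 (permutation p = 0.00443, adjusted p = 0.0709). This relation missed the threshold, and r was -0.59 without the 2 farthest NAMs.

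ERBB2 (ENSCAFG00000016351, chromosome 9, 22759256 to 22785294, minus strand), the partner receptor without a ligand of its own, was also lower in PPGLs. Its level was 7.32 to 27.3 CPM with a median of 15.8 CPM in NAMs. It was 1.75 to 17.0 CPM with a median of 5.42 CPM in group 1, and 3.67 to 22.9 CPM with a median of 7.48 CPM in group 2. Of the 19 PPGLs 12 lay below every NAM, 6 in each group, and the other 7 overlapped with the NAMs. Among NAMs replicate 3 was the lowest.

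In PPGLs against NAMs the log2 FC of ERBB2 was -1.01 (SE 0.32, adjusted p = 0.0136). The call was lost with the cortex score in the fit, at -0.29 (adjusted p = 0.729), and with the Schwann score, at -0.68 (adjusted p = 0.19), in a range of adjusted p from 0.00565 to 0.729. In the 19 PPGLs ERBB2 and the Schwann score gave r = 0.48 (permutation p = 0.0405, adjusted p = 0.324) and rho = 0.57 (permutation p = 0.0127, adjusted p = 0.145), which failed the correction, and r was 0.43 without the 2 farthest samples. Within group 1 the relation gave r = 0.77 (exact permutation p = 0.0425) and rho = 0.82 (exact permutation p = 0.0341), and within group 2 r = 0.48 (permutation p = 0.111) and rho = 0.52 (permutation p = 0.0837). The exons of ERBB2 share 499 bases with MIEN1 on the other strand. The strand setting of the counting is not given in the sources used here, so reads in those bases cannot be told apart.

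ERBB2 fell in group 1, with a log2 FC of -1.46 (SE 0.42, adjusted p = 0.0077). It was not called with the cortex score in the fit, which cannot be told apart from the group there, at -0.37 (adjusted p = 0.929), in a range of 0.00106 to 0.929. In group 2 the log2 FC was -0.80 (SE 0.35, adjusted p = 0.0741). There it passed the threshold without group 1 replicate 4, at -0.80 (adjusted p = 0.0476), without group 2 replicate 9, at -0.90 (adjusted p = 0.0484), and without group 2 replicate 11, at -0.98 (adjusted p = 0.0263). It also passed by the DESeq2 Wald test (adjusted p = 0.0481) and the Mann-Whitney U-test (adjusted p = 0.0446), in a range of 0.0446 to 0.783. The PPGL groups were not shown to differ, with -0.66 (SE 0.46, adjusted p = 0.448).

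Among the 10 NAMs ERBB2 was higher where the score of kidney and liver markers was higher, with r = 0.92 (permutation p = 8e-05, adjusted p = 0.00576) and rho = 0.88 (permutation p = 0.00163, adjusted p = 0.0521). By rank the relation did not pass the correction, and r was 0.84 without the 2 farthest NAMs. The score took in the 3 markers that passed the low-count filter. The summed level of all 9 markers found was 30.1 to 179 CPM in NAMs. APOA1 was the most abundant of them, and UMOD, FGA and FGB were at or under 3 counts in every NAM. With the chromaffin score ERBB2 gave r = -0.81 (permutation p = 0.00517, adjusted p = 0.0827) and rho = -0.48 (permutation p = 0.164, adjusted p = 0.548), which missed the threshold, and r was -0.56 without the 2 farthest. With the cortex score it gave r = 0.60 (permutation p = 0.066, adjusted p = 0.377) and rho = 0.66 (permutation p = 0.0434, adjusted p = 0.339). This relation also missed the threshold, and r was 0.74 without the 2 farthest.

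EGFR (ENSCAFG00000003465, chromosome 18, 5982770 to 6042631, plus strand), the receptor for EGF, AREG, EREG and HBEGF, was lower in group 1. Its level was 7.95 to 20.6 CPM with a median of 11.7 CPM in NAMs. It was 0.408 to 12.2 CPM with a median of 3.26 CPM in group 1, and 2.00 to 42.4 CPM with a median of 8.91 CPM in group 2. Of the 19 PPGLs 11 lay below every NAM, 5 of 7 in group 1 and 6 of 12 in group 2, and group 2 replicate 11 lay above every NAM.

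In group 1 against NAMs EGFR had a log2 FC of -1.49 (SE 0.53, adjusted p = 0.0306). The call was lost without group 1 replicate 2, at -1.28 (adjusted p = 0.0627), replicate 3, at -1.41 (adjusted p = 0.0567), replicate 6, at -1.28 (adjusted p = 0.0519), or replicate 7, at -1.38 (adjusted p = 0.0608). Its log2 FC was lower still but not called with the cortex score in the fit, where group and score cannot be told apart, at -4.86 (adjusted p = 0.196), in a range of 0.0101 to 0.196. The log2 FC was -0.15 (SE 0.44, adjusted p = 0.817) in group 2 and -0.51 (SE 0.43, adjusted p = 0.368) over all PPGLs, and group 1 against group 2 gave -1.32 (SE 0.61, adjusted p = 0.242).

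The relation of EGFR to fibroblast markers is given within each PPGL group, and the difference between the groups was not tested. Within group 2 EGFR and the fibroblast score gave r = 0.85 (permutation p = 0.0003) and rho = 0.83 (permutation p = 0.00147), and within group 1 r = -0.22 (exact permutation p = 0.64) and rho = -0.39 (exact permutation p = 0.396). Over the 19 PPGLs the relation gave r = 0.53 (permutation p = 0.0205, adjusted p = 0.196) and rho = 0.44 (permutation p = 0.0623, adjusted p = 0.39), and r was 0.27 without the 2 samples farthest from the median score, so the pooled value rests on those samples. The summed level of the 6 fibroblast markers was 266 to 658 CPM in NAMs, 154 to 2382 CPM in group 1 and 407 to 25288 CPM in group 2, with COL1A2 the most abundant in NAMs and COL3A1 in both PPGL groups. Their part in the EGFR level was not tested.

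EGFR was also set against endothelial markers, those of the cells that line blood vessels. Over the 19 PPGLs their score and EGFR gave r = 0.60 (permutation p = 0.00742, adjusted p = 0.087) and rho = 0.51 (permutation p = 0.0264, adjusted p = 0.237), which missed the threshold, and r was 0.34 without the 2 farthest samples. Within group 1 the relation gave r = 0.60 (exact permutation p = 0.149) and rho = 0.57 (exact permutation p = 0.2), and within group 2 r = 0.61 (permutation p = 0.0333) and rho = 0.64 (permutation p = 0.0294). Summed, the 7 markers stood at 408 to 1187 CPM in NAMs, 198 to 976 CPM in group 1 and 238 to 846 CPM in group 2, with VWF the most abundant in NAMs and PECAM1 in both PPGL groups. Their part in the EGFR level was not tested either.

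ERBB3 (ENSCAFG00000000097, chromosome 10, 406633 to 424264, plus strand), a neuregulin receptor of glial and epithelial cells, spread widely over the tumors. Its level was 7.17 to 23.9 CPM with a median of 13.5 CPM in NAMs. It was 0.686 to 69.6 CPM with a median of 6.14 CPM in group 1, and 1.89 to 49.0 CPM with a median of 15 CPM in group 2. Of the 19 PPGLs 7 lay below every NAM, 5 above every NAM and 7 within their range, with group 1 replicate 1 the highest and group 1 replicate 5 the lowest.

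The log2 FC of ERBB3 in PPGLs against NAMs was 0.33 (SE 0.48, adjusted p = 0.618). In group 1 it was 0.43 (SE 0.61, adjusted p = 0.615), and -0.38 without group 1 replicate 1. In group 2 it was 0.27 (SE 0.53, adjusted p = 0.73), and group 1 against group 2 gave 0.20 (SE 0.68, adjusted p = 0.906). Among NAMs ERBB3 was higher where the Schwann score was higher, with r = 0.85 (permutation p = 0.00195, adjusted p = 0.0542) and rho = 0.84 (permutation p = 0.00376, adjusted p = 0.0677), which missed the threshold. Without the 2 farthest NAMs r was 0.78. In the 19 PPGLs the same relation gave r = 0.09 (permutation p = 0.712, adjusted p = 0.866) and rho = 0.08 (permutation p = 0.741, adjusted p = 0.915), and r was 0.43 without the 2 farthest samples. Within group 1 it gave r = 0.55 (exact permutation p = 0.202) and rho = 0.57 (exact permutation p = 0.2), and within group 2 r = -0.25 (permutation p = 0.44) and rho = -0.29 (permutation p = 0.368).

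NRG1 (ENSCAFG00000006371, chromosome 16, 31706851 to 32771932, minus strand), the neuregulin that binds ERBB3 and ERBB4, overlapped between tumors and normal tissue. Its level was 4.38 to 15.9 CPM with a median of 8.22 CPM in NAMs. It was 1.04 to 57.0 CPM with a median of 11.0 CPM in group 1, and 0.790 to 29.6 CPM with a median of 9.32 CPM in group 2. Of the 19 PPGLs 5 lay above every NAM and 5 below, and group 1 replicate 6, the PPGL with the highest ERBB4, was also the highest for NRG1. The log2 FC over all PPGLs was 0.51 (SE 0.49, adjusted p = 0.431). It was 0.85 (SE 0.59, adjusted p = 0.277) in group 1, and 0.10 without group 1 replicate 6. In group 2 it was 0.26 (SE 0.52, adjusted p = 0.73), and group 1 against group 2 gave 0.59 (SE 0.67, adjusted p = 0.668).

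With the Schwann score in the fit NRG1 passed the threshold, at 1.59 (adjusted p = 0.0171) over all PPGLs, in a range of 0.0171 to 0.856, and at 1.72 (adjusted p = 0.0179) in group 1, in a range of 0.0179 to 0.948. In group 2 it was 1.46 (adjusted p = 0.0507) and not called, in a range of 0.0507 to 0.912. Only group 1 replicate 4 and group 2 replicates 2, 5 and 9 reached the Schwann scores of the NAMs. Group and score can thus hardly be told apart in these fits. In the 19 PPGLs NRG1 and that score gave r = 0.65 (permutation p = 0.00277, adjusted p = 0.057) and rho = 0.68 (permutation p = 0.00217, adjusted p = 0.0521), which missed the threshold, and r was 0.49 without the 2 farthest samples. Within group 2 the relation gave r = 0.82 (permutation p = 0.001) and rho = 0.76 (permutation p = 0.00677), and within group 1 r = 0.45 (exact permutation p = 0.313) and rho = 0.64 (exact permutation p = 0.139).

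Among the 10 NAMs NRG1 was higher where the chromaffin score was higher, with r = 0.86 (permutation p = 0.00106, adjusted p = 0.0382) and rho = 0.76 (permutation p = 0.0151, adjusted p = 0.145). It was lower where the cortex score was higher, with r = -0.87 (permutation p = 0.00101, adjusted p = 0.0382) and rho = -0.87 (permutation p = 0.00216, adjusted p = 0.0521). By rank neither relation passed the correction. Without the 2 farthest NAMs r was 0.72 and -0.92. With the kidney and liver score NRG1 gave r = -0.78 (permutation p = 0.00785, adjusted p = 0.087) and rho = -0.85 (permutation p = 0.00285, adjusted p = 0.0586), which missed the threshold, and r was -0.54 without the 2 farthest.

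**Figure D2:**
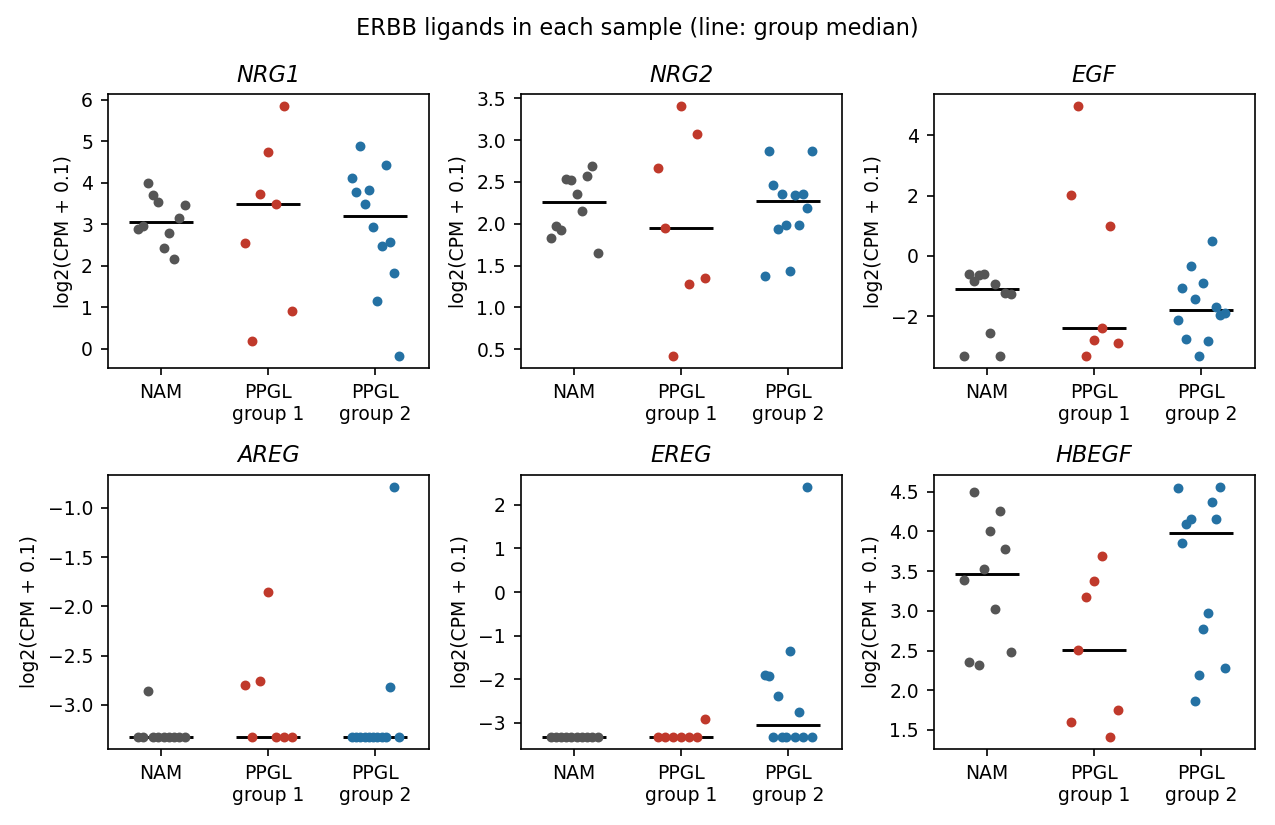
Level of the 6 ligands in each sample, as log2 of CPM plus 0.1 on the vertical axis, for 10 NAMs, 7 PPGLs of group 1 and 12 PPGLs of group 2. Each point is a sample and each line a group median. AREG and EREG sit at or near 0 CPM in most samples, and EGF is high in group 1 replicates 1, 2 and 6.

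NRG2 (ENSCAFG00000005731, chromosome 2, 35085361 to 35264378, minus strand), another neuregulin, had a ratio of 2.09 between its highest and lowest NAM, the smallest of the 7 members detected in every NAM. Its level was 3.03 to 6.33 CPM with a median of 4.68 CPM in NAMs. It was 1.24 to 10.5 CPM with a median of 3.77 CPM in group 1, and 2.49 to 7.22 CPM with a median of 4.72 CPM in group 2. Of the 19 PPGLs 10 lay within the range of the NAMs, 4 above and 5 below it. The log2 FC was 0.02 (SE 0.25, adjusted p = 0.951) over all PPGLs, 0.08 (SE 0.32, adjusted p = 0.88) in group 1 and -0.02 (SE 0.28, adjusted p = 0.972) in group 2.

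NRG2 was higher in PPGLs with higher chromaffin markers. In the 19 PPGLs NRG2 and the chromaffin score gave r = 0.77 (permutation p = 7e-05, adjusted p = 0.00576) and rho = 0.78 (permutation p = 0.00014, adjusted p = 0.0202). Without the 2 samples farthest from the median score r was 0.78. Within group 1 the relation gave r = 0.85 (exact permutation p = 0.0236) and rho = 0.82 (exact permutation p = 0.0341), and within group 2 r = 0.67 (permutation p = 0.0178) and rho = 0.73 (permutation p = 0.00832). Among NAMs it gave r = -0.17 (permutation p = 0.648, adjusted p = 0.811) and rho = -0.13 (permutation p = 0.731, adjusted p = 0.915), and r was -0.19 without the 2 farthest. With the leukocyte score NRG2 gave r = -0.42 (permutation p = 0.0733, adjusted p = 0.377) and rho = -0.68 (permutation p = 0.00177, adjusted p = 0.0521) in the 19 PPGLs, which missed the threshold, and r was -0.70 without the 2 farthest. Within group 1 that relation gave r = -0.94 (exact permutation p = 0.00337) and rho = -0.96 (exact permutation p = 0.00278), and within group 2 r = -0.31 (permutation p = 0.324) and rho = -0.49 (permutation p = 0.109). Summed, the 7 leukocyte markers stood at 164 to 520 CPM in NAMs, 104 to 436 CPM in group 1 and 72.1 to 979 CPM in group 2, with C1QA the most abundant in each group, and their part in the NRG2 level was not tested. Of the 144 relations of 8 members with 9 marker scores, 4 had an adjusted p below 0.05 by r and 1 by rho, and that 1 was NRG2 with the chromaffin score in PPGLs.

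HBEGF (ENSCAFG00000005749, chromosome 2, 35551250 to 35563043, minus strand), a membrane-bound EGFR ligand released by shedding, overlapped between the groups. Its level was 4.88 to 22.5 CPM with a median of 10.9 CPM in NAMs. It was 2.57 to 12.9 CPM with a median of 5.60 CPM in group 1, and 3.55 to 23.4 CPM with a median of 15.7 CPM in group 2. Of the 19 PPGLs 11 lay within the range of the NAMs, 6 below and 2 above it. The log2 FC was -0.09 (SE 0.36, adjusted p = 0.867) over all PPGLs, -0.82 (SE 0.43, adjusted p = 0.145) in group 1 and 0.20 (SE 0.37, adjusted p = 0.7) in group 2.

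HBEGF was set against the immediate early genes, which respond quickly to stimulation and to tissue handling. In the 19 PPGLs their score and HBEGF gave r = 0.68 (permutation p = 0.00226, adjusted p = 0.0542) and rho = 0.71 (permutation p = 0.00105, adjusted p = 0.0521), which missed the threshold, and r was 0.54 without the 2 farthest samples. Within group 1 the relation gave r = 0.45 (exact permutation p = 0.283) and rho = 0.46 (exact permutation p = 0.302), and within group 2 r = 0.69 (permutation p = 0.0162) and rho = 0.66 (permutation p = 0.0233). Among NAMs it gave r = 0.79 (permutation p = 0.0072, adjusted p = 0.087) and rho = 0.79 (permutation p = 0.00889, adjusted p = 0.128), and r was 0.72 without the 2 farthest. The summed level of the 9 genes was 135 to 3736 CPM in NAMs, 47.7 to 2172 CPM in group 1 and 279 to 4243 CPM in group 2, with NR4A1 the most abundant in NAMs and EGR1 in both PPGL groups. Their part in the HBEGF level was not tested. With the endothelial score HBEGF gave r = 0.63 (permutation p = 0.004, adjusted p = 0.072) and rho = 0.58 (permutation p = 0.0106, adjusted p = 0.139) in the 19 PPGLs, which missed the threshold, and r was 0.48 without the 2 farthest. Within group 1 that relation gave r = 0.77 (exact permutation p = 0.0431) and rho = 0.82 (exact permutation p = 0.0341), and within group 2 r = 0.56 (permutation p = 0.0619) and rho = 0.56 (permutation p = 0.0636).

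EGF (ENSCAFG00000011532, chromosome 32, 30073950 to 30166295, plus strand), a ligand of EGFR, was low in most samples. It held 3 counts or fewer in 3 of 10 NAMs, 4 of 7 PPGLs of group 1 and 6 of 12 of group 2. It was 0 to 0.558 CPM with a median of 0.373 CPM in NAMs. It was 0 to 31.0 CPM with a median of 0.0895 CPM in group 1, and 0 to 1.32 CPM with a median of 0.190 CPM in group 2. In group 1 it stood at 31.0 CPM in replicate 2, 3.94 CPM in replicate 1 and 1.87 CPM in replicate 6, all above every NAM, while the other 4 samples held 3 counts or fewer. The median of group 1 was below that of the NAMs.

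EGF passed the filter in the fit with 3 groups and failed it in the other fits. In group 1 against NAMs it had a log2 FC of 3.98 (SE 1.08, adjusted p = 0.00491). Without group 1 replicate 2 it was 1.62 (adjusted p = 0.179), so the call rests on that library. By the Mann-Whitney U-test the adjusted p was 0.881, in a range of 0.000646 to 0.881. Nor was it called with the cortex score in the fit, where group and score cannot be told apart, at 3.52 (adjusted p = 0.713). In group 2 the log2 FC was -0.04 (SE 0.93, adjusted p = 0.978).

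AREG (ENSCAFG00000003075, chromosome 13, 62926301 to 62936738, plus strand) and EREG (ENSCAFG00000031443, chromosome 13, 62856709 to 62877760, plus strand), neighbouring genes of EGFR ligands, failed the low-count filter in each comparison. AREG held 3 counts or fewer in 10 of 10 NAMs, 6 of 7 PPGLs of group 1 and 11 of 12 of group 2, with 9 counts in group 2 replicate 11 and 4 in group 1 replicate 4. EREG was at 0 counts in all 10 NAMs and in 6 of 7 PPGLs of group 1. Group 2 replicate 11 held 98 counts of EREG, 5.20 CPM, and the other PPGLs held at most 6 counts. Without the filter EREG was called in PPGLs against NAMs, with an adjusted p of 0.0163, and in group 2 against NAMs, with 0.00392, and neither call was tested without group 2 replicate 11. That sample was also the highest of the 29 samples in EGFR, HBEGF and AREG, with 42.4, 23.4 and 0.477 CPM. It had the highest summed level of fibroblast markers, 25288 CPM beside 5952 CPM in the next sample, and of leukocyte markers, 979 CPM beside 863 CPM. Their part in these levels was not tested.

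**Figure D3:**
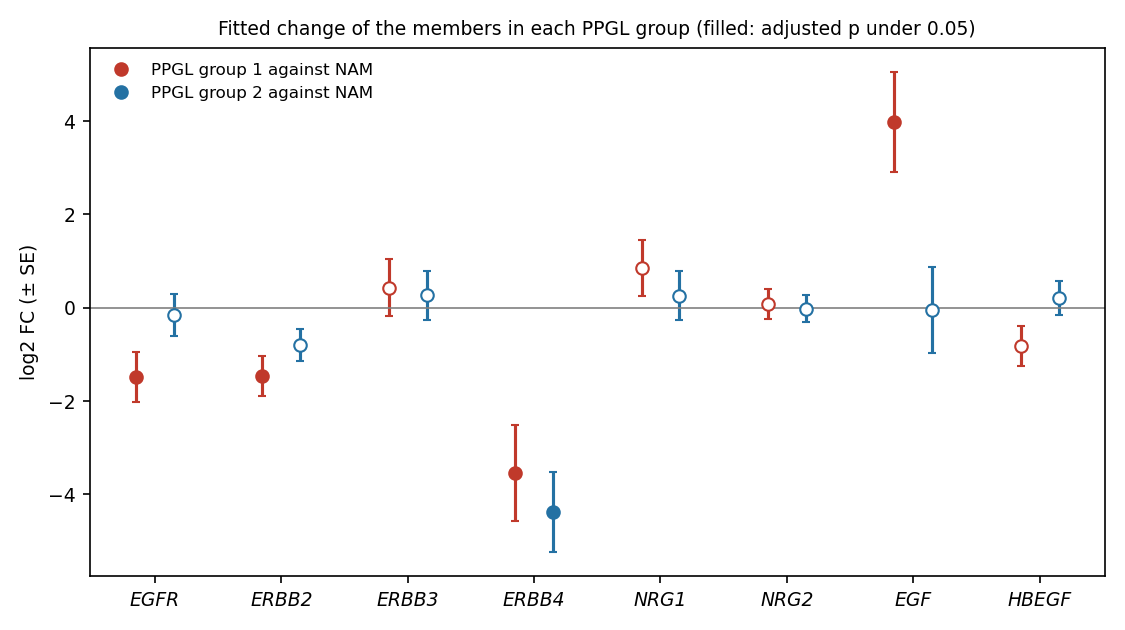
Fitted log2 FC of the 8 members that passed the filter in the fit with 3 groups, for PPGL group 1 and PPGL group 2 against the same 10 NAMs. Bars are the standard error derived from the F statistic, and filled points have an adjusted p below 0.05. ERBB4 is filled in both groups, at -3.54 and -4.37, and EGF stands at 3.98 in group 1, a value that rests on replicate 2.

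Between PPGL group 1 and PPGL group 2, 0 of 7 members tested were called at an adjusted p below 0.1 by edgeR, where 6.92% of 14666 genes, or 1015, were called. Over all genes DESeq2's Wald test called 1793 and the Mann-Whitney U-test 404. With the cortex score in the fit edgeR called 0, with 1481 at an unadjusted p below 0.05, and only group 1 replicate 6 and group 2 replicate 7 overlapped in that score. Without group 1 replicate 7 the genes called were 525 and without group 2 replicate 4 they were 674. At an unadjusted p below 0.05 there were 2 of 7 members, EGFR and HBEGF, beside 2845 of 14666 genes. HBEGF had a log2 FC of -1.01 (SE 0.45, adjusted p = 0.217). DESeq2's Wald test called 0 members, with 3 at an unadjusted p below 0.05, beside 3172 genes. The Mann-Whitney U-test called 0, with 1 beside 2134 genes. Without the low-count filter 1165 of 23467 genes were called. Of the members 2 were called, EGF with an adjusted p of 0.0599 and EREG with 0.0912. EGF held 658 counts in group 1 replicate 2 and EREG 98 counts in group 2 replicate 11, and neither call was tested without these samples.

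Levels of different genes were compared per exon length, as CPM per kilobase of exon (RPKM). In NAMs HBEGF had the highest median level, 4.77 RPKM with an SD of 2.69 RPKM, and ERBB4, ERBB2, ERBB3 and EGFR followed at 2.83, 2.74, 2.65 and 2.52 RPKM. The SDs of these 4 receptors, 0.942 to 1.80 RPKM over 10 samples, were larger than the steps between them. These SDs describe the spread between samples, and differences between genes within a sample were not tested. The order, with HBEGF first, is thus a description. NRG1 and NRG2 followed at 1.96 and 1.67 RPKM, with SDs of 0.863 and 0.417 RPKM, and EGF stood apart at 0.0988 RPKM.

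In group 1 the median level of ERBB4 was 0.0154 RPKM, against 1.21 for ERBB3, 0.938 for ERBB2 and 0.702 for EGFR. NRG1 was highest at 2.63 RPKM, followed by HBEGF at 2.45 RPKM. In group 2 it was 0.111 RPKM for ERBB4, against 2.95 for ERBB3, 1.92 for EGFR and 1.29 for ERBB2, and HBEGF was highest at 6.87 RPKM. ERBB4 was thus the lowest receptor in both PPGL groups. The SD within group 1 was 4.97 RPKM for ERBB3, 4.72 RPKM for NRG1 and 1.78 RPKM for HBEGF. The order of the medians in the PPGL groups was likewise not tested within samples.

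The genes most like each receptor and NRG1 over the 19 PPGLs were those with the highest Spearman rho of log2 CPM, given as a description. For ERBB4 they were CCDC28A (rho = 0.85), TRPC4 (0.76) and IP6K3 (0.73). For ERBB2 they were LPAR1 (rho = 0.89), LGI4 (0.88) and GPM6B (0.83). For EGFR they were SEC24A (rho = 0.85), SLCO4C1 (0.83) and ITGA2 (0.82), and for ERBB3 PDK2 (0.78), TARS1 (0.73) and AP3M1 (0.73). For NRG1 they were HEPACAM (rho = 0.83), RASGEF1C (0.83) and RELN (0.82).

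Of 5 other ErbB ligands 3 were in the table by name and 2 were tested, BTC and NRG3, with a median log2 FC of -1.38 beside 0.13 over all genes. In PPGLs against NAMs BTC had a log2 FC of -1.48 (SE 0.86, adjusted p = 0.177) and NRG3 of -1.28 (SE 0.71, adjusted p = 0.158), neither past the threshold. Both fell in group 2 against NAMs, NRG3, a neuregulin of the nervous system, with a log2 FC of -2.93 (SE 0.72, adjusted p = 0.00264) and BTC, a ligand of EGFR and ERBB4, with -3.32 (SE 0.94, adjusted p = 0.00773), where 14.5% of all genes were called lower. In group 1 NRG3 was -0.18 (SE 0.78, adjusted p = 0.883) and BTC -0.33 (SE 0.99, adjusted p = 0.829), neither called. The median of the pair was -0.26 in group 1 and -3.13 in group 2, beside 0.13 and 0.09 over all genes. Between the PPGL groups BTC was not among the genes tested. The level of NRG3 was 0.204 to 7.36 CPM in NAMs, 0 to 8.14 CPM in group 1 and 0 to 1.09 CPM in group 2, so the groups overlapped. That of BTC was 0.0509 to 5.57 CPM in NAMs, 0 to 4.19 CPM in group 1 and 0 to 0.592 CPM in group 2, which overlapped too. In group 2 BTC was near the floor, with 3 counts or fewer in 9 of 12 PPGLs. NRG3 held 3 counts or fewer in 5 of 12 PPGLs of group 2 and 2 of 7 of group 1. The call of BTC was lost with the cortex score in the fit, at -3.50 (adjusted p = 0.166), and with the Schwann score, at -2.38 (adjusted p = 0.189), in a range of 0.0023 to 0.189. These genes were named after their values were seen.

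Ligand shedding, the release of membrane-bound ligands by proteases, was mixed. Of 7 genes tested between PPGLs and NAMs 2 were higher, beside 22.3% of all genes, and 2 lower, beside 15.2%, with a median log2 FC of -0.10 beside 0.13 over all genes. The inactive rhomboids RHBDF2 and RHBDF1, partners of the protease ADAM17, rose by 1.5 (SE 0.33, adjusted p = 0.000864) and 0.68 (SE 0.22, adjusted p = 0.0141) on the log2 scale, and each lay above every NAM in 13 of 19 PPGLs. The proteases ADAM9 and ADAM10 fell by 0.83 (SE 0.20, adjusted p = 0.00165) and 0.50 (SE 0.15, adjusted p = 0.00999), and lay below every NAM in 9 and 14 of 19 PPGLs. RHBDF1 was 0.63 (SE 0.27, adjusted p = 0.0674) in group 1, not called, and 0.71 (SE 0.24, adjusted p = 0.0225) in group 2, and group 1 against group 2 gave -0.07 (SE 0.30, adjusted p = 0.921). With the cortex score in the fit all 4 calls were lost. RHBDF2 was then 0.97 (adjusted p = 0.137), in a range of 1.96e-05 to 0.137 over the alternatives, and ADAM9 -0.20 (adjusted p = 0.648), in a range of 0.000283 to 0.648. RHBDF1 was 0.45 (adjusted p = 0.328), in a range of 0.00754 to 0.328, and ADAM10 -0.38 (adjusted p = 0.27), in a range of 0.00447 to 0.27, and both calls were also lost with the Schwann score, at 0.65 and -0.46.

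Of the 25 adaptors and effectors tested 4 were higher, beside 22.3% of all genes, and 4 lower, beside 15.2%, with a median log2 FC of 0.10. PIK3CA, a catalytic subunit of PI3 kinase, fell by 1.44 (SE 0.23, adjusted p = 3.27e-05) on the log2 scale, and the transcription factor STAT5A fell by 1.04 (SE 0.13, adjusted p = 1.44e-06). PIK3CA and STAT5A each lay below every NAM in 18 of 19 PPGLs. PIK3R3, a regulatory subunit of PI3 kinase, rose by 1.05 (SE 0.30, adjusted p = 0.0071), and the docking proteins GAB2 and GAB1 by 0.98 (SE 0.28, adjusted p = 0.00667) and 0.76 (SE 0.27, adjusted p = 0.0267).

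In group 1 against NAMs PIK3R3 was 0.34 (SE 0.32, adjusted p = 0.426), GAB2 0.65 (SE 0.33, adjusted p = 0.124) and GAB1 0.15 (SE 0.29, adjusted p = 0.728), none of them called. In group 2 PIK3R3 was 1.34 (SE 0.29, adjusted p = 0.000854), GAB2 1.14 (SE 0.29, adjusted p = 0.00397) and GAB1 1.02 (SE 0.26, adjusted p = 0.00374), all called. The difference between the PPGL groups did not pass the threshold, with an adjusted p of 0.14 for PIK3R3, 0.495 for GAB2 and 0.146 for GAB1. With the cortex score in the fit over all PPGLs PIK3CA was -0.85 (adjusted p = 0.0664), in a range of 6.66e-08 to 0.0664 over the alternatives, so its call was lost, and STAT5A was at -1.37 (adjusted p = 4.06e-05), in a range of 2.54e-12 to 0.00126. PIK3R3 lost its call by the Mann-Whitney U-test (adjusted p = 0.0562, range 0.00183 to 0.0638) and GAB2 with the Schwann score, at 0.92 (adjusted p = 0.0561) in a range of 0.00175 to 0.0561. GAB1 lost its call by the Mann-Whitney U-test (adjusted p = 0.0512) and with the Schwann score, at 0.80 (adjusted p = 0.0826) in a range of 0.00326 to 0.0929. GAB1 was also lost without NAM replicate 6, 8 or 9, at 0.71, 0.69 and 0.70.

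Of the 10 receptor inhibitors tested 3 were higher, beside 22.3% of all genes, and 1 lower, beside 15.2%, with a median log2 FC of 0.27. LRIG1, a membrane protein that lowers ERBB receptor levels, rose by 0.96 (SE 0.21, adjusted p = 0.00067) and lay above every NAM in 15 of 19 PPGLs. RNF41, a ubiquitin ligase of ERBB3, rose by 0.50 (SE 0.14, adjusted p = 0.00563) and SOCS5 by 0.43 (SE 0.15, adjusted p = 0.0247). SOCS5 was 0.17 (SE 0.18, adjusted p = 0.468) in group 1, not called, and 0.56 (SE 0.15, adjusted p = 0.00656) in group 2, and group 1 against group 2 gave -0.37 (SE 0.20, adjusted p = 0.302). CBLB, a ubiquitin ligase, fell by 1.10 (SE 0.21, adjusted p = 0.000152) and lay below every NAM in 15 of 19. With the cortex score in the fit the calls of LRIG1 and RNF41 were lost, at 0.65 (adjusted p = 0.117), in a range of 4.64e-05 to 0.117, and at 0.48 (adjusted p = 0.0988), in a range of 0.00303 to 0.0988. That of SOCS5 was lost with the Schwann score, at 0.32 (adjusted p = 0.206) in a range of 0.013 to 0.206, and without NAM replicate 2, at 0.39, and CBLB was called under each alternative (range 3.56e-06 to 0.0412).

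Of 15 ERK feedback genes and targets, which respond to that cascade, 1 was higher, beside 22.3% of all genes, and 3 were lower, beside 15.2%, with a median log2 FC of -0.02. PHLDA1 fell by 2.88 (SE 0.50, adjusted p = 6.91e-05) on the log2 scale, and the transcription factors ETV4 and ETV1 fell by 1.78 (SE 0.43, adjusted p = 0.00187) and 1.37 (SE 0.37, adjusted p = 0.00417). The cyclin CCND1 rose by 0.81 (SE 0.28, adjusted p = 0.02). It was 1.20 (SE 0.31, adjusted p = 0.00328) in group 1 and 0.52 (SE 0.27, adjusted p = 0.146) in group 2, where it was not called, and group 1 against group 2 gave 0.68 (SE 0.33, adjusted p = 0.267). All 4 calls were lost with the cortex score in the fit, where PHLDA1 was -1.15 (adjusted p = 0.178) in a range of 6.57e-08 to 0.178, and CCND1 0.09 (adjusted p = 0.9) in a range of 0.0107 to 0.9. ETV4 was -0.95 (adjusted p = 0.291) in a range of 0.000164 to 0.291, and ETV1 -0.27 (adjusted p = 0.76) in a range of 0.000914 to 0.76. ETV4 and ETV1 also lost their calls with the Schwann score, at -1.44 and -1.23. Between the PPGL groups 4 of the 15 were lower in group 1, beside 2.95% of all genes.

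Marker lists also moved with PPGLs against NAMs. The cortex and Schwann scores were entered in the fits above, and the part of the other lists in the member values was not tested. Over all genes 22.3% were called higher and 15.2% lower in that comparison. Of 7 endothelial markers 4 were lower, of 6 fibroblast markers 4 were higher, and of 7 leukocyte markers 1 was higher and 1 lower, with a median log2 FC of -0.73, 2.20 and 0.27. Of the 9 immediate early genes 3 were higher and 1 lower, with a median of 0.69, and of 9 Schwann and sustentacular markers tested 1, SCN7A, was lower, with a median of -0.90. Of 3 epithelial markers tested 2 were higher, with a median of 2.41, and of 3 kidney and liver markers tested 1 was lower, with a median of -0.89. Of the 11 cortex markers 10 were lower, with a median of -3.19. Of the 12 chromaffin markers 3 were higher and 1 lower, with a median log2 FC of 0.57. The lower one was PNMT, the enzyme that makes epinephrine, with -1.94 (SE 0.64, adjusted p = 0.0177), a call that was lost with the Schwann score, at -0.70 (adjusted p = 0.541) in a range of 1.72e-06 to 0.541, and it was named after its values were seen. In group 1 against NAMs 0 of the 12 chromaffin markers were called lower, beside 14.1% of all genes. PNMT was 1602 to 4767 CPM in NAMs, 11.6 to 5827 CPM in group 1 and 62.5 to 890 CPM in group 2.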

How the data were processed

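RNA was sequenced from stranded mRNA libraries with short single-end reads. CanFam3.1 was the reference and STAR the aligner, and the raw exon counts per gene used here are those the authors deposited. Strand setting and treatment of multiply mapped reads are not given in the sources used here. The groups came from the sample labels.
From these counts edgeR 4.0.16 (R 4.3.3) gave TMM factors, CPM and quasi-likelihood F tests over the genes passing filterByExpr (minimum count 10, minimum total 15), with a prior count of 0.125 for log2 FC and 2 for log2 CPM. P-values were adjusted by Benjamini-Hochberg over all genes tested, with thresholds of 0.05 against NAMs and 0.1 between PPGL groups. PPGLs against NAMs and PPGL groups were fitted with 2 groups, and each PPGL group against NAMs in a fit with 3 groups. The SE was derived from the test, as the size of the log2 FC divided by the square root of the F statistic. RPKM used the deposited exon lengths. Marker scores were the mean log2 CPM of the markers that passed the low-count filter in PPGLs against NAMs. Correlations used 100000 two-sided permutations, or all orders in group 1, adjusted over the 144 relations in NAMs and in all PPGLs, and not adjusted within a PPGL group. Alternatives were other normalizations, filters, prior counts and tests (DESeq2 1.42.0, Mann-Whitney), marker scores as covariates, a block on sample number, and each sample left out. The fits were tested on simulated data.
Members and lists were chosen with earlier results of these data known. From each pathway list the genes past the threshold between PPGLs and NAMs with the largest change were named, up to 3 in each direction, and some results under these rules are not reported here. For the receptors and NRG1 the 3 genes with the highest rho were named, and from marker lists the most abundant gene and genes at or near 0. Not found by name were TGFA, NRG4, SHC2, SOCS4, CHGA, CD14, ALB, KRT7, KRT8 and KRT19.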

Additional observations from a re-analysis of the deposited data

Results flagged for a closer look

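A sample stood apart from the others of its group where its gap to the nearest sample, as a share of the group's range of log2 CPM, exceeded Dixon's critical value, 0.466 for the 10 NAMs and 0.568 for the 7 PPGLs of group 1. Chance gives such a sample in about 1 in 20 groups, and 19 groups of a member were tested. The 12 PPGLs of group 2 were not tested in this way, which covers groups of up to 10 samples. ERBB2 was low in NAM replicate 3, with a share of 0.471. ERBB4 was high in group 1 replicate 6, with 0.578. AREG was high in NAM replicate 3, with a share of 1 that rests on 1 count, and in group 1 replicate 4, with 0.605, on 4 counts. EREG was high in group 1 replicate 7, with a share of 1 that rests on 1 count.
Among the other ErbB ligands and the pathway genes named, NRG3, PHLDA1, STAT5A and ADAM9 differed between the PPGL groups by edgeR's test with an adjusted p below 0.1, where 6.92% of 14666 genes were called. Group 1 against group 2 gave a log2 FC of 2.77 (SE 0.82, adjusted p = 0.0661) for NRG3, -2.50 (SE 0.58, adjusted p = 0.0253) for PHLDA1, 0.49 (SE 0.15, adjusted p = 0.0809) for STAT5A and -0.74 (SE 0.21, adjusted p = 0.0559) for ADAM9. With the cortex score in the fit, in which the groups overlapped only by group 1 replicate 6 and group 2 replicate 7, edgeR called 0 of all genes, these included, and 1481 had an unadjusted p below 0.05. DESeq2's Wald test called 1793 genes and the Mann-Whitney U-test 404. Over the alternatives the adjusted p ranged from 0.0188 to 0.885 for NRG3, 0.000131 to 0.707 for PHLDA1, 0.0238 to 0.581 for STAT5A and 0.0131 to 0.67 for ADAM9. The call of NRG3 was also lost by the Mann-Whitney U-test and without group 1 replicate 5, at 2.14 (adjusted p = 0.154). NRG3 held 3 counts or fewer in 5 of 12 PPGLs of group 2 and 2 of 7 of group 1. STAT5A also lost its call with the Schwann score, at 0.44 (adjusted p = 0.126), and without the low-count filter, at 0.47 (adjusted p = 0.13). Without group 1 replicates 2, 3 and 4 in turn it was 0.49, 0.49 and 0.38 and not called, and without group 2 replicates 3, 4, 8, 9, 10, 11 and 12 in turn 0.45, 0.48, 0.48, 0.47, 0.50, 0.49 and 0.44 and not called.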

How the results depend on the processing

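Over other normalizations, filters and prior counts, and with each sample left out in turn, ERBB4 kept its direction and its call in PPGLs against NAMs and in each PPGL group against NAMs, and ERBB2 in PPGLs against NAMs. With a sample left out, ERBB4 in PPGLs against NAMs ranged from -4.83 to -3.88 and ERBB2 from -1.15 to -0.91. Scaling by library size alone moved the median log2 FC of all genes by 0.11 in group 1 against NAMs. Depth limits AREG and EREG, which were at or near the floor of 3 counts in most samples, and EGF, which held 3 counts or fewer in part of the samples.
With the cortex score as a covariate edgeR called 2005 genes in PPGLs against NAMs, 10 in group 1 and 838 in group 2. Between PPGL groups it called 0, with 1481 at an unadjusted p below 0.05. Against NAMs 0, 0 and 0 members were called. At an unadjusted p below 0.05 there were 1, 2 and 1 members, beside 4308, 1742 and 3247 genes. With that score ERBB3 was -0.00423 in PPGLs against NAMs, -0.54 in group 1, -0.16 in group 2 and -0.26 between PPGL groups. HBEGF was 0.65 in PPGLs against NAMs, ERBB4 1.12 in group 1 and NRG2 0.65 in group 2. In group 1 no score reached those of the NAMs, so group and score cannot be told apart, and in the other comparisons the cause was not tested.
With the Schwann score as a covariate 3323 genes and 0 members were called by edgeR in group 2 against NAMs. At an unadjusted p below 0.05 there were 2 members, beside 5335 genes. With that score NRG2 was 0.34 and EGF 0.90 in group 2 against NAMs, and NRG2 was -0.0988 between PPGL groups. By library size only HBEGF was 0.00658 in PPGLs against NAMs, and NRG2 0.0200 and EGF 0.00628 in group 2. In group 2 against NAMs 2 members were called by DESeq2's Wald test, beside 5567 of 15201 genes. The Mann-Whitney U-test called 2 there, beside 5492 of 15201 genes, and without the filter 2 were called, beside 5571 of 24051. Between PPGL groups 1793 genes were called by DESeq2's Wald test, where ERBB4 was -2.14, and 404 by the Mann-Whitney U-test. Without the filter 2 members were called between PPGL groups, beside 1165 of 23467 genes. The cause was not tested.
Sample numbers did not pair samples: deviations of samples with the same number had a median r of 0.01 for NAMs and group 1, 0.01 for NAMs and group 2 and -0.04 for the PPGL groups, and 0 of 7, 2 of 10 and 0 of 7 samples correlated best with their own number. With the replicate block 4653, 3936, 4180 and 47 genes were called in the 4 comparisons, and 2 members in group 2 against NAMs, ERBB4 and ERBB2, the latter at -1.02 (adjusted p = 0.0446). In group 1 EGF was 2.44 (adjusted p = 0.306) and not called. ERBB3 was then -0.19, -0.41, -0.0952 and -0.73, and NRG2 -0.0483 in PPGLs against NAMs, -0.0289 in group 1 and -0.0243 between PPGL groups, where ERBB4 was -1.82 and NRG1 -0.43. In PPGLs against NAMs RHBDF1, PIK3R3, GAB1, SOCS5 and CCND1 were not called with the block, with adjusted p of 0.0527, 0.0638, 0.0929, 0.0795 and 0.0573. Between PPGL groups NRG3, PHLDA1, STAT5A and ADAM9 were not called, with 0.674, 0.408, 0.581 and 0.408.
With a sample left out, NRG2 ranged from -0.0755 to 0.0816 in PPGLs against NAMs, -0.22 to 0.25 in group 1, -0.0906 to 0.0416 in group 2 and -0.19 to 0.28 between PPGL groups. HBEGF ranged from -0.19 to 0.0670 in PPGLs against NAMs, EGF from -0.52 to 0.0735 in group 2, and ERBB3 from -0.38 to 0.66 in group 1. Between PPGL groups ERBB3 ranged from -0.64 to 0.45, ERBB4 from -2.44 to 1.09 and NRG1 from -0.16 to 0.84. Members called ranged from 2 to 4 in group 1, lowest without group 1 replicate 2, and from 1 to 2 in group 2. Over all genes the number called ranged from 4799 to 5551 in group 1 and from 4391 to 5476 in group 2. Genes called between PPGL groups ranged from 525 to 1218, lowest without group 1 replicate 7, and were 674 without group 2 replicate 4. With a prior count of 0.5 in log2 CPM, 1 relation of a member with a marker score passed by both r and rho, as with the prior count of 2.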
